A study of Homo sapiens with 20 samples.

Results

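Bidirectional coding promoters are the short stretches from which a protein-coding gene on the minus strand and a protein-coding gene on the plus strand are read away from each other. In the GENCODE release 44 annotation of GRCh38, 887 such pairs on chromosomes 1 to 22 and X had 5′ gene ends at most 1 kb apart, and together they held 1710 of 19970 coding genes. After pairs that shared a gene were reduced to the pair with the shorter span, 825 pairs remained, each counted once, and these are the members described here. They were set beside 16250 one-direction promoters, which are 5′ ends of coding genes with no opposite-strand coding 5′ end within 5 kb and a window clear of every pair. The remaining 2010 coding genes were in neither class.

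Chromatin immunoprecipitation with sequencing had been carried out in PC-3, an established cell line from a prostate cancer, with an antibody against MYC (c-Myc, a transcription factor) and an antibody against POL2 (RNA polymerase II). Wild-type cells (WT) were compared with cells in which SLK, a protein kinase gene, was knocked out (SLK-KO, labelled PSD10), with 3 libraries per antibody and genotype. The labels call them biological replicates and do not say whether PSD10 is a single clone. No agent was added to either group, as far as the labels say. Libraries made with IgG or from input chromatin were left out here. The 12 files analysed are lists of 1-bp summits, the highest point of each called peak, with the authors' score, so they hold no read depth and no peak width.

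The POL2 lists held 5047 to 17126 summits in WT and 15436 to 19017 in SLK-KO, and the MYC lists 201 to 365 in WT and 988 to 1420 in SLK-KO. A longer list and a deeper or cleaner library cannot be told apart here, which touches each comparison of genotypes below. WT replicate 2 of POL2 had by far the shortest list of that antibody. As a check of the label, a POL2 summit lay within 1 kb of the 5′ end of the epithelial keratin genes KRT8, KRT18 and KRT19 in 6 of 6 libraries, of EPCAM in 3 and of CDH1 in 1. The androgen-responsive genes KLK3, KLK2 and TMPRSS2 had a summit in 0 libraries. VIM and the lymphoid genes PTPRC and CD3E had 0. SLK itself had a POL2 summit in 5 of 6 libraries and a MYC summit in 0, and whether SLK protein was absent is not visible in such a list.

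In a divergent pair, separate transcription machinery can assemble at each end of a shared, usually CpG-rich and nucleosome-poor stretch, so the genes have their own start sites in opposite directions. Polymerase commonly pauses a short way into each gene. Pairs of this kind are known for genes of DNA repair, histones, chaperones and mitochondria. MYC is known to bind promoters that are already open, with a preference for the E-box CACGTG.

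The pairs were compact. The distance between the 5′ ends ran from 1 to 995 bp with a median of 129 bp (quartiles 69 and 240 bp), and 676 of the 825 pairs, 81.9%, had a span of at most 300 bp. The window examined reached from 500 bp inside the minus-strand gene to 500 bp inside the plus-strand gene. A one-direction promoter was given a window of 1130 bp, the length of a pair with the median span. Of the pair windows, 88.1% were CpG-rich (GC of at least 50% and an observed over expected CpG ratio of at least 0.6), against 52.5% of the one-direction windows. The median CpG ratio was 0.772 and 0.645, respectively.

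The sequences between the 5′ ends of 9 pairs are printed because the results below return to them: H2BC21/H2AC20, SRSF7/GEMIN6 and C11orf98/CSKMT carried top-ranked POL2 summits in every library, APTX/DNAJA1, LRRC41/UQCRH and COX11/STXBP4 kept their summits on a single side, TMEM258/FEN1 holds an E-box without a MYC summit, and NCBP2/NCBP2AS2 and NUDCD2/HMMR had MYC summits in the SLK-KO libraries. They are GRCh38 reference sequence, plus strand, with the minus-strand gene to the left. Capitals mark the GC box GGGCGG, the CCAAT box, the TATA box TATAAA, the ETS motif CCGGAAG, the E-box CACGTG, the NRF1 motif's core CGCATGCG and the run CTCGCGAG, each searched on both strands.
H2BC21/H2AC20 (chr1:149886683-149886917): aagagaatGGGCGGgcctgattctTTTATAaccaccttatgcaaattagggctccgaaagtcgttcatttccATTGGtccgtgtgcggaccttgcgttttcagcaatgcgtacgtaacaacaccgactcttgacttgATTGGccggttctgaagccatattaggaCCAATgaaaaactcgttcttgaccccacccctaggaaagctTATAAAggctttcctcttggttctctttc
SRSF7/GEMIN6 (chr2:38751495-38751533): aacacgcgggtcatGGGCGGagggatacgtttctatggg
C11orf98/CSKMT (chr11:62665211-62665308): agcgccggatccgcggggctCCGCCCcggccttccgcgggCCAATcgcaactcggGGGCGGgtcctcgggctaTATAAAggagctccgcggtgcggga
APTX/DNAJA1 (chr9:33025131-33025272): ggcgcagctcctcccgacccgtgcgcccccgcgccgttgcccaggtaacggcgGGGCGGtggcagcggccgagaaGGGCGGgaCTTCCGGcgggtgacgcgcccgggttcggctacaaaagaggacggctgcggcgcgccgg
LRRC41/UQCRH (chr1:46303617-46303697): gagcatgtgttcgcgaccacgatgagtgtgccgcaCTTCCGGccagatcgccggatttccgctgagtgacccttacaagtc
TMEM258/FEN1 (chr11:61792803-61792910): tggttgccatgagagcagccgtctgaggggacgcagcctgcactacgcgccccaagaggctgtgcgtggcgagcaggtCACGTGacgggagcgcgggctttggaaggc
NCBP2/NCBP2AS2 (chr3:196942595-196942673): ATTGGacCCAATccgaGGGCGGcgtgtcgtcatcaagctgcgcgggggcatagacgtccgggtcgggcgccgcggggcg
NUDCD2/HMMR (chr5:163460103-163460202): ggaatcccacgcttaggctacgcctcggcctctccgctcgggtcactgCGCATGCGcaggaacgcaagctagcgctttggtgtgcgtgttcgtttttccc
COX11/STXBP4 (chr17:54968704-54968726): gcgtgctccgtCTCGCGAGatct
The histone stretch holds CCAAT boxes in both orientations and TATAAA on either strand, C11orf98/CSKMT holds 1 TATAAA, and the 7 others hold none.

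POL2 was found at most of these promoters. In WT replicates 1, 2 and 3 a POL2 summit lay in 583, 250 and 456 of the 825 pair windows, which is 70.7%, 30.3% and 55.3%. In SLK-KO replicates 1, 2 and 3 it lay in 601, 562 and 587, which is 72.8%, 68.1% and 71.2%. WT replicate 2 was the lowest, and WT replicate 1 lay within the SLK-KO range. In the one-direction windows the shares were 32.7%, 12.6% and 24.0% in WT and 33.6%, 30.8% and 32.4% in SLK-KO, so each library held POL2 at pairs 2.16 to 2.40 times as often.

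Averaged over the 6 libraries, 61.4% ± 16.5 of the pairs and 27.7% ± 8.17 of the one-direction promoters were occupied (SD, n = 6). The difference was 33.7 percentage points ± 8.36, in the same direction in 6 of 6 libraries (exact two-sided sign-flip permutation p = 0.03125, the smallest 6 libraries allow, 0.04375 after Benjamini-Hochberg adjustment over 7 comparisons between the promoter classes). The libraries share 1 genome and 1 set of promoters, so that p speaks only of repetition between libraries. Base composition moved with the result. Among CpG-rich windows alone POL2 was at 64.9% of 727 pairs and 46.0% of 8533 one-direction promoters, 18.9 points apart (exact permutation p = 0.03125). With each list cut to its 5047 best-scored summits it was at 36.6% and 15.6% of the windows. A pair window also holds a pair of start sites. With a separate window of 500 bp either side of every 5′ end the shares were 58.0% and 27.4%. At spans of up to 500 bp such a window still holds both 5′ ends, so it does not separate the start sites. At least 1 of 2 one-direction windows, taken as independent, would hold POL2 in 47.2% ± 12.5, against 61.4% ± 16.5 of pairs (SD, n = 6). The part of the other start site in the difference was not tested.

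**Figure D1:**
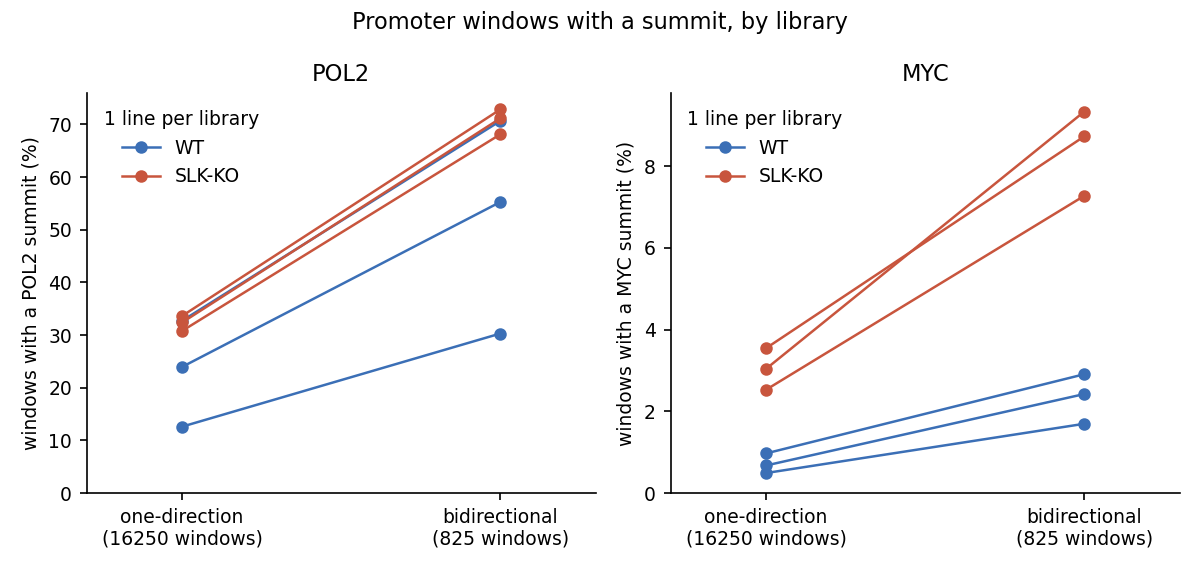
Share of promoter windows with a POL2 summit (left) or a MYC summit (right), in percent, with each library drawn as a line from the 16250 one-direction windows to the 825 bidirectional windows. All 12 lines rise to the right, and the SLK-KO lines for MYC lie above those of WT, whose lists are shorter.

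MYC was found at few promoters, and at pairs more often than elsewhere. A MYC summit lay in 24, 14 and 20 pair windows in WT replicates 1, 2 and 3 (2.91%, 1.70% and 2.42%). In SLK-KO replicates 1, 2 and 3 it lay in 77, 72 and 60 (9.33%, 8.73% and 7.27%). The genotypes did not overlap. In the one-direction windows the WT shares were 0.972%, 0.492% and 0.677% and the SLK-KO shares 3.04%, 3.54% and 2.53%. Over the 6 libraries the difference between the classes was 3.52 points ± 2.14 (SD, n = 6, exact permutation p = 0.03125, adjusted 0.04375, 6 of 6 libraries), and the ratio of the shares ran from 2.46 to 3.58. In CpG-rich windows the difference was 2.60 points, and with lists cut to 201 summits it was 1.38 points (exact permutation p = 0.03125 for each). At least 1 of 2 one-direction windows, taken as independent, would hold MYC in 3.70% ± 2.59, against 5.39% ± 3.43 of pairs (SD, n = 6).

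The occupied pairs differed in how often the libraries repeated them. Of the 825 pairs, 654 (79.3%) had a POL2 summit in at least 1 library, against 41.4% of all 17075 coding promoter windows, pairs included. In all 6 libraries 226 pairs (27.4%) had one, against 11.8%. A further 195 pairs had POL2 in 2 WT and 3 SLK-KO libraries, and without WT replicate 2 the count of pairs found in every library was 408. No POL2 summit was listed in any library for 171 pairs. For MYC, 122 pairs (14.8%) had a summit in at least 1 library, against 6.07% of all windows. In all 6 libraries 6 pairs (0.727%) had one, against 0.258%, and without WT replicate 2 the number was 11. For neither antibody was the share of all windows counted without that library.

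**Figure D2:**
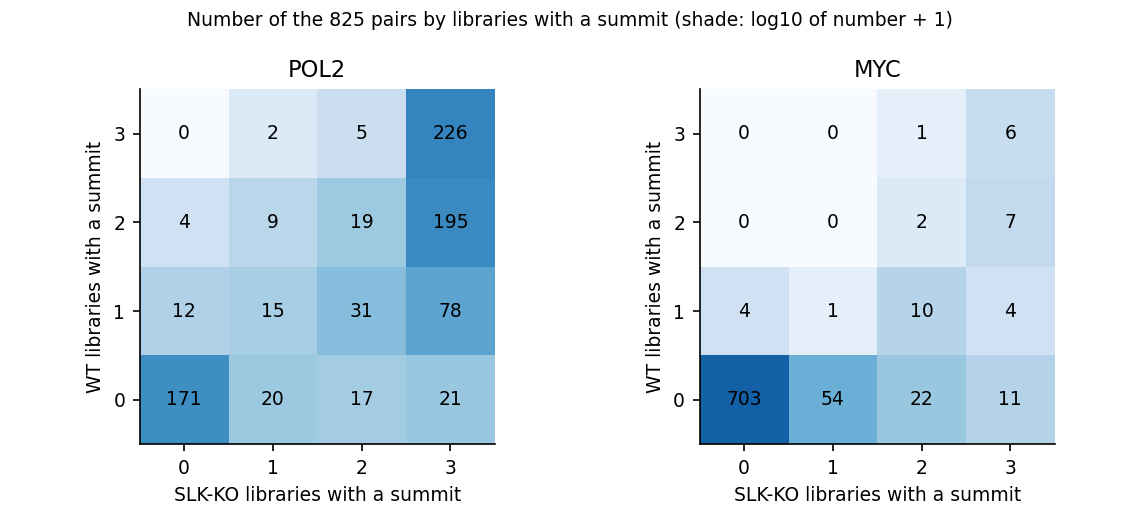
Number of pairs by how many WT libraries (vertical axis, 0 to 3) and how many SLK-KO libraries (horizontal axis, 0 to 3) held a summit, for POL2 (left) and MYC (right), with darker cells for larger numbers. The largest POL2 numbers are 226 pairs in all 6 libraries, 195 in 2 WT and 3 SLK-KO libraries and 171 in none, while 703 pairs had no MYC summit.

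Some pairs lie far from any listed POL2 summit. In 74 pairs (8.97%) and 3747 one-direction promoters (23.1%), no list had a POL2 summit within 100 kb. With those windows left out, the difference between the classes was 31.4 points for POL2 (exact permutation p = 0.03125). A window's own summits count here, so only windows without POL2 could be left out, and the filter depends on the outcome compared.

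The POL2 summit usually lay inside a gene rather than between the genes. Between 42.8% and 48.6% of a library's POL2 summits in pairs were inside the minus-strand gene, 43.9% to 47.3% inside the plus-strand gene, and 7.42% to 12.8% between the 5′ ends. The median summit was 73 to 76.5 bp inside the nearer gene in the 6 libraries. In one-direction promoters 73.5% to 75.1% of the POL2 summits were downstream of the 5′ end, with a median of 59 to 62 bp into the gene. Measured from the midpoint of the pair, the median distance was 153.5 to 166.5 bp. The 5′ end used is the outermost one of the gene record, so a distance is to the annotation and not to a mapped start.

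MYC summits in pairs were spread more widely. Between 15.0% and 28.6% of a library's MYC summits lay between the 5′ ends, on 14 to 78 summits per library, and the median position was 63 to 180.5 bp inside the nearer gene. In one-direction promoters the MYC median was 42 to 78.5 bp into the gene.

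**Figure D3:**
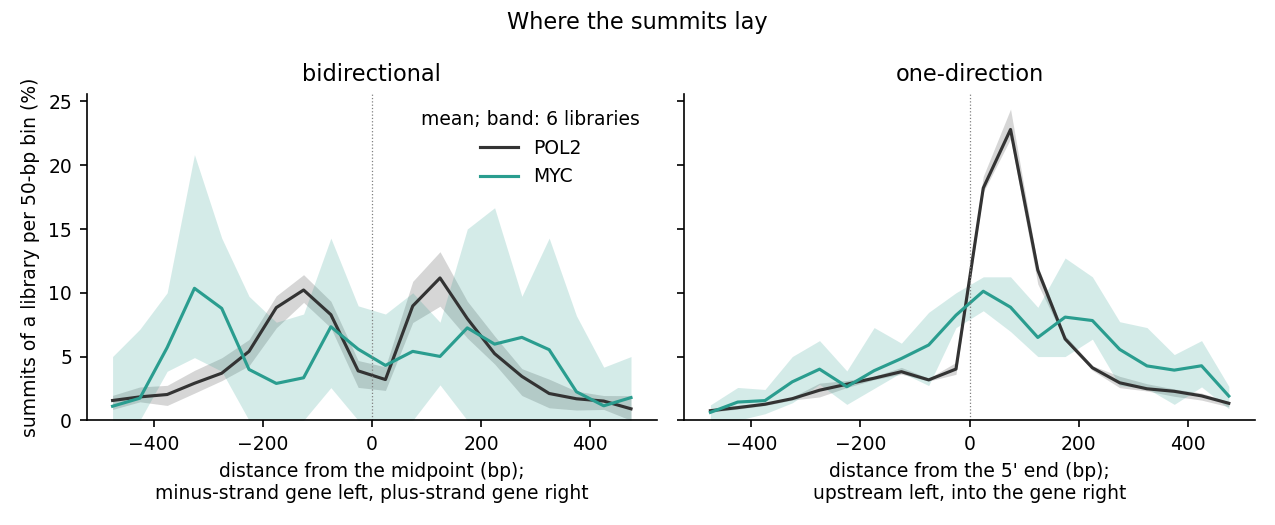
Share of a library's summits per bin of 50 bp, as the mean of the 6 libraries with the lowest to highest library shaded, against the distance from the midpoint of the pair (left) or from the 5′ end of a one-direction promoter (right). POL2 forms 2 humps flanking the midpoint of pairs and 1 peak just inside one-direction genes, while the MYC band is wide, with summits in only 14 to 24 pairs per WT library.

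A pair could hold a summit on both sides of its midpoint, and few did in the same library. The share of POL2-occupied pairs with summits on both sides was 5.15%, 2.80% and 2.85% in WT and 3.00%, 3.91% and 4.09% in SLK-KO. The mean was 3.63% ± 0.926 against 0.995% ± 0.145 in one-direction windows (SD, n = 6). Pairs were higher by 2.64 points in 6 of 6 libraries (exact permutation p = 0.03125, adjusted 0.04375). Summits per occupied window were 1.04 and 1.01, a difference of 0.0263 (exact permutation p = 0.03125, adjusted 0.04375). Both differences came with long spans. Among pairs within 30 bp of the median span, whose windows match the one-direction windows in length, the differences were 0.0114 points and -0.000216 summits (exact permutation p = 0.96875 for each).

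By span, the share of occupied pairs with both sides was 1.08% for the 137 pairs with spans of 1 to 50 bp, 1.40% for the 185 pairs of 51 to 100 bp, 0.867% for the 240 pairs of 101 to 200 bp, 4.61% for the 166 pairs of 201 to 400 bp and 17.5% ± 2.84 for the 97 pairs of 401 to 1000 bp. In the same order POL2 occupied 60.5%, 64.1%, 58.7%, 65.9% and 56.5% of the pairs, with no order by span and with SDs over libraries of 15.5 to 18.1 points. When both sides had a summit, the median distance between the outer summits was 607 to 772 bp in the 6 libraries, and the smallest was 269 bp. No closer summits were listed on opposite sides, so at short spans polymerase at 1 gene and at both cannot be told apart here. At the limit of the rule, the 28 pairs with spans of 801 to 1000 bp were POL2-occupied in 62.5% ± 12.3 and the 11 divergent pairs of 1001 to 1200 bp, which are not members, in 71.2% ± 3.71 (SD, n = 6).

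**Figure D4:**
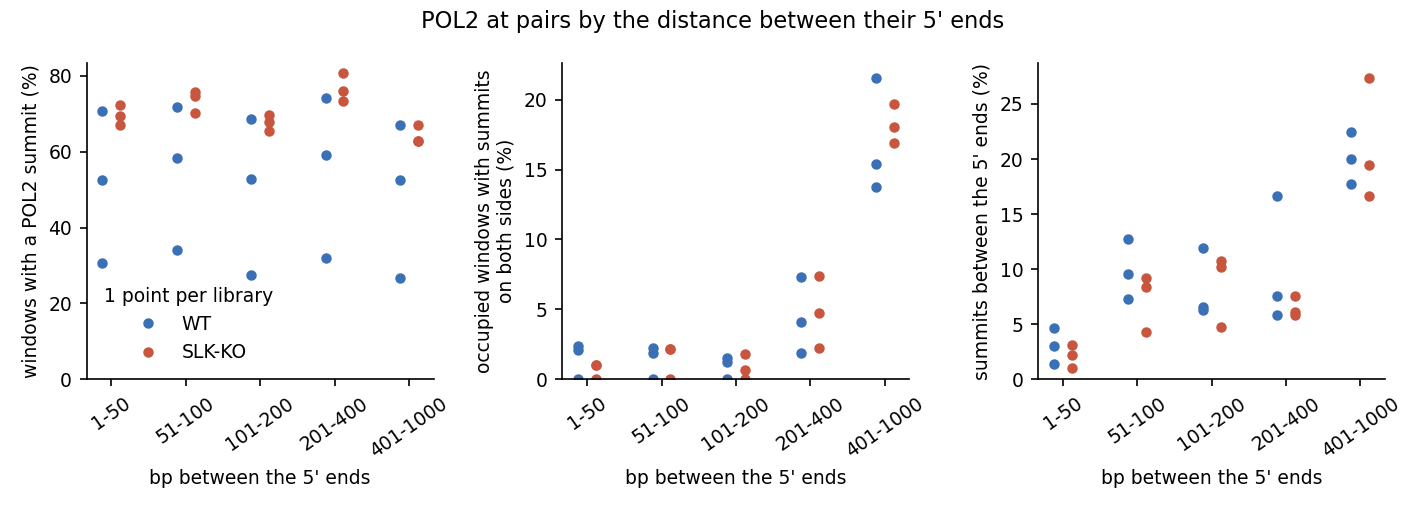
POL2 at pairs grouped by the distance between their 5′ ends in bp, with 1 point per library: windows with a summit (left), occupied windows with summits on both sides (middle) and summits lying between the 5′ ends (right), all in percent. Occupancy shows no order by span, whereas summits on both sides are concentrated in the group of 401 to 1000 bp, at 13.7% to 21.5%.

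MIX23/FAM162A, with a span of 930 bp, was the only pair with POL2 on both sides in all 6 libraries. Its MIX23 summit lay 479 to 530 bp to the left of the midpoint and its FAM162A summit 338 to 577 bp to the right. In all, 63 pairs had both sides in at least 1 library and 15 in at least 3, and the median span of those 15 was 562 bp. H3C7/H2BC9, a pair of histone genes with a span of 979 bp, and TXNL4A/ENSG00000267127, where TXNL4A encodes a spliceosome protein, had both sides in 5 libraries. PSMB1/TBP, which joins a proteasome subunit to the TATA-binding protein, had PSMB1-side summits in 6 libraries and TBP-side summits in 3. PMEL/RAB5B had both sides in 4.

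Where only a single side was listed, it was mostly the same side each time. Taking the pairs with 1 side each in 2 POL2 libraries, the side was the same for 78.4% to 86.6% of the pairs. The mean was 83.8% between WT libraries, 82.3% between SLK-KO libraries and 81.5% between the genotypes. Of the 226 pairs with POL2 in all 6 libraries, 70 had it on the minus-strand gene's side only, 63 on the plus-strand gene's side only, 1 on both sides throughout and 92 not on the same side throughout. The 133 single-sided pairs had a median span of 133 bp and a median distance from summit to midpoint of 155.5 bp, against 99.5 bp and 112.25 bp for the 92.

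SRSF7/GEMIN6 was the clearest single-sided pair outside the histone genes. SRSF7 encodes a splicing factor and GEMIN6 a protein of the complex that assembles spliceosomal particles, and 40 bp separate their 5′ ends. The POL2 summit lay 184, 184 and 183 bp to the left of the midpoint in WT and 192, 182 and 188 bp in SLK-KO, in a noncoding exon part of SRSF7 each time. It ranked 47, 53 and 70 by score in WT and 89, 110 and 76 in SLK-KO, in lists of 5047 to 19017 summits. The GEMIN6 side had 0 summits. MYC summits were on the SRSF7 side as well, in 3 WT and 2 SLK-KO libraries, at 208 to 460 bp.

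Further pairs repeated 1 side. RSRC2/KNTC1 and POLR2L/TSPAN4 had POL2 on the RSRC2 and POLR2L side in all 6 libraries, POLR2L being a subunit shared by the RNA polymerases, with the best ranks at 125 and 236. The summit of POLR2L/TSPAN4 lay 172.5 to 221.5 bp to the left of the midpoint, in a coding exon of POLR2L. On the plus side, C11orf98/CSKMT had POL2 66.5 to 82.5 bp to the right of the midpoint at ranks 107 to 148. ANKMY2/BZW2 had it 239 to 248 bp to the right at ranks 153 to 226, with MYC summits further into BZW2, at 512 to 582 bp, in 5 libraries. APTX/DNAJA1, which joins a DNA-end processing enzyme to a co-chaperone, had POL2 92.5 to 121.5 bp to the right, on the DNAJA1 side. LRRC41/UQCRH, the latter a subunit of respiratory complex III, had it 404 to 486 bp to the left, within a coding exon of LRRC41. COX11/STXBP4, where COX11 is an assembly factor of cytochrome c oxidase, had it 48 to 126 bp to the left, on the COX11 side.

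The strongest POL2 summits of all pairs were at histone genes. H2BC21/H2AC20, encoding an H2B and an H2A histone, ranked 36, 31 and 26 in WT and 31, 29 and 33 in SLK-KO, with the summit 114 to 196 bp to the right of the midpoint, on the H2AC20 side. H2BC4/H2AC6 ranked 47 to 81 and H2AC7/H2BC7 68 to 187, both on the side of the H2A gene. H2BC8/H2AC8 ranked 60 to 103, with 5 libraries on the H2BC8 side and 1, WT replicate 2, on the H2AC8 side. H2AC17/H2BC17 and H2BC11/H2AC11 were also on the side of the H2A gene in all 6 libraries. Histone genes have near-identical copies, and how the authors treated reads that map to several places is not given in the sources used here, so ranks and sides at these pairs are uncertain.

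The gene groups known for divergent pairs were well represented. Replication-dependent histones had 26 of 74 genes in pairs, DNA repair 26 of 80, mitochondrial ribosomal proteins 17 of 78, the respiratory chain 20 of 98, chaperones 15 of 87 and cell cycle and replication 18 of 109, against 1650 of 19970 coding genes, 8.26%, in the pairs counted. POL2 was in all 6 libraries at 10 of 13 histone pairs, 7 of 14 chaperone pairs, 7 of 16 mitochondrial ribosomal pairs, 9 of 26 DNA repair pairs, 6 of 18 cell cycle pairs and 5 of 20 respiratory chain pairs, beside 226 of 825 over all pairs. At one-direction promoters of these groups, in that order, it was at 10 of 31, 13 of 55, 22 of 46, 3 of 39, 19 of 82 and 13 of 58. Over all one-direction promoters it was at 1786 of 16250. A MYC summit was in at least 1 library at 6 of the DNA repair pairs, 2 each of the mitochondrial ribosomal, chaperone and cell cycle pairs, 1 respiratory chain pair and 0 of the 13 histone pairs, beside 122 of 825. At one-direction promoters of these groups, in that order, MYC was at 5 of 39, 13 of 46, 7 of 55, 9 of 82, 5 of 58 and 0 of 31. Over all one-direction promoters MYC was at 914 of 16250. The cell cycle list was made by symbol and holds CDC42SE1 and CDC123 by their letters alone.

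In these groups, the POL2 summit changed side between libraries at several pairs. PMS2/AIMP2, a mismatch repair gene with a scaffold protein of aminoacyl-tRNA synthetases, had POL2 on the PMS2 side in 4 libraries and on the AIMP2 side in 2, and MYC on the AIMP2 side in 5. Among the PMS2-side POL2 summits, those of WT replicate 2 and SLK-KO replicate 2 lay between the 5′ ends, 7.5 and 37.5 bp from the midpoint. PSPH/CCT6A, a serine synthesis enzyme with a chaperonin subunit, was divided 3 to 3. UQCC6/TDG had POL2 on the side of TDG, a thymine DNA glycosylase, in 6 libraries and MYC on that side in 3. SKA3/MRPL57 had POL2 on the MRPL57 side in 6 libraries, MRPL10/LRRC46 on the MRPL10 side in 6, and ATPSCKMT/CCT5 on the side of the chaperonin gene CCT5 in 5. CCND3/TAF8 had POL2 154 to 164 bp to the right of the midpoint, on the side of TAF8, a TFIID subunit. The side of CCND3, the gene of cyclin D3, had 0 summits in this window. The window is set by the outermost 5′ end of the gene record, and other CCND3 starts were not examined.

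**Figure D5:**
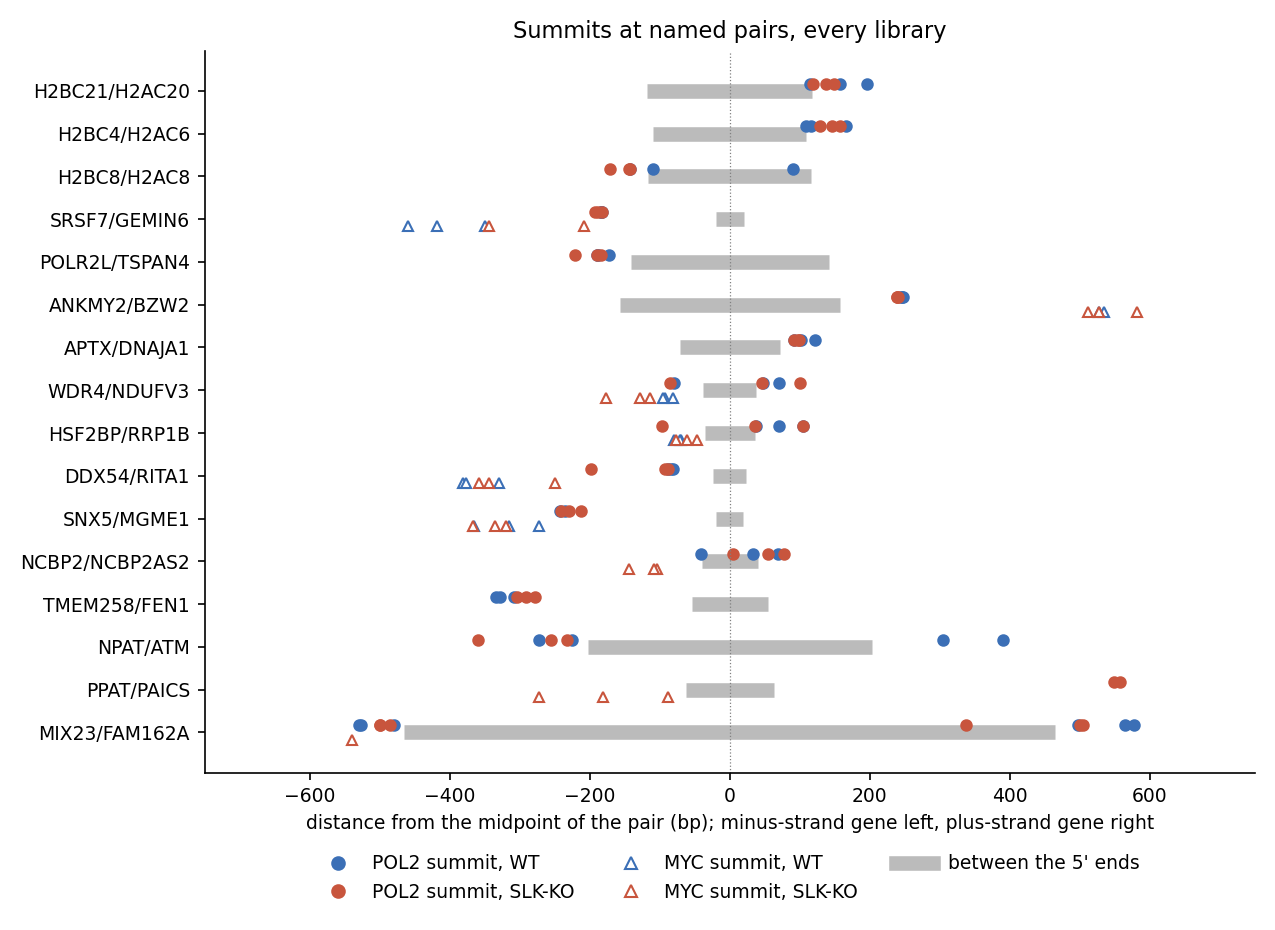
Position of every POL2 summit (filled circles) and MYC summit (open triangles) at 16 named pairs, as distance in bp from the midpoint of the pair, with the stretch between the 5′ ends as a grey bar. SRSF7/GEMIN6, SNX5/MGME1 and TMEM258/FEN1 have all their POL2 summits to the left, WDR4/NDUFV3 and HSF2BP/RRP1B have them on either side, and only MIX23/FAM162A has both sides in each library.

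Among textbook divergent pairs, POL2 was at some and not at others. TMEM258/FEN1, FEN1 being the flap endonuclease of lagging-strand synthesis, had POL2 in all 6 libraries, 278.5 to 334.5 bp to the left on the TMEM258 side. NPAT/ATM, a histone gene activator with the DNA damage kinase, had POL2 in all 6, on the NPAT side in 5 and on the ATM side in 2. PPAT/PAICS, enzymes of purine synthesis, had POL2 in 0 WT and 2 SLK-KO libraries, 549 and 557 bp to the right in PAICS. PRKDC/MCM4, with a span of 7 bp, had 0 summits of either antibody in its window, the nearest POL2 summit of any library lying 786 bp from the midpoint. SARS2/MRPS12 had 0 as well, with the nearest POL2 summit 101063 bp away. HSPD1/HSPE1, GART/SON, COL4A1/COL4A2 and SURF1/SURF2 did not meet the rule in this annotation.

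MYC was listed in all 6 libraries at 6 pairs: SNX5/MGME1, METTL1/ENSG00000257921, DDX54/RITA1, WDR4/NDUFV3, HSF2BP/RRP1B and L3HYPDH/JKAMP. SNX5 encodes a sorting nexin, MGME1 a mitochondrial exonuclease, METTL1 and WDR4 the subunits of a tRNA methyltransferase, DDX54 an RNA helicase, NDUFV3 a complex I subunit and RRP1B a nucleolar protein. At SNX5/MGME1 the MYC summit ranked 14, 5 and 12 in WT and 4, 7 and 6 in SLK-KO, so it was near the top of every list. It lay 315, 273 and 366 bp to the left of the midpoint in WT and 319, 336 and 367 bp in SLK-KO, always in a noncoding exon part of SNX5. POL2 lay 213 to 243 bp to the left in 5 libraries and was not listed in WT replicate 2.

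The MYC summit was on the minus-strand side in every library at the 5 pairs named first, while POL2 was on either side at some of them. Over all pairs, 47.2% to 64.3% of a library's MYC summits lay to the left of the midpoint. At WDR4/NDUFV3, MYC lay 81 to 177 bp to the left, on the WDR4 side, and POL2 was on the WDR4 side in 2 libraries and the NDUFV3 side in 4. At HSF2BP/RRP1B, MYC lay 47 to 80 bp to the left, on the HSF2BP side, and POL2 on the RRP1B side in 5 libraries. The stretches between the genes at 2 of these pairs, shown because MYC was listed beside them in each library and on the same strand and build as those above, hold none of the 7 motifs.
SNX5/MGME1 (chr20:17968981-17969017): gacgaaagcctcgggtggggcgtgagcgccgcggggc
WDR4/NDUFV3 (chr21:42879569-42879643): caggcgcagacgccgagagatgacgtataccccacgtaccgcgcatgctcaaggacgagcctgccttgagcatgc
At SNX5/MGME1 and HSF2BP/RRP1B the nearest E-box lay in the flanking minus-strand gene.

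Of the 41 pairs with a MYC summit in at least 3 libraries, 20 (48.8%) had CACGTG within 150 bp of the median MYC summit. The share was 23.5% of 81 pairs with MYC in 1 or 2 libraries. Around the median POL2 summit of 534 pairs with POL2 and no MYC it was 6.37%, and around that of 5540 one-direction promoters with POL2 and no MYC it was 6.35%. Of 233 one-direction promoters with MYC in at least 3 libraries, 41.2% had one. The 5 sites below are the CACGTG nearest to the median summit with 10 bases either side, plus strand of GRCh38, and are shown because they lie by repeated MYC summits.
SNX5/MGME1 (chr20:17968676-17968701): gcaaagacgcCACGTGgggcctaccc
METTL1/ENSG00000257921 (chr12:57772104-57772129): ctaccaaatcCACGTGgaggcgcagg
DDX54/RITA1 (chr12:113185107-113185132): agccccgagaCACGTGctcaggccgg
HSF2BP/RRP1B (chr21:43659425-43659450): gcgccggcgcCACGTGcacacgggct
PPAT/PAICS (chr4:56435482-56435507): ccgccgaaagCACGTGgaaggacctg
The distance from site to median summit was 17 bp at SNX5/MGME1, 11 bp at METTL1/ENSG00000257921, 31 bp at DDX54/RITA1, 15 bp at HSF2BP/RRP1B and 2 bp at PPAT/PAICS. At PPAT/PAICS the MYC summits of SLK-KO replicates 1, 2 and 3 lay 88, 181 and 272 bp to the left of the midpoint. The short distance there is thus to the middle summit alone, that of replicate 2. The sites are in a noncoding exon part of SNX5, METTL1, HSF2BP and PPAT and in an intron of DDX54. At WDR4/NDUFV3 no CACGTG lay within 150 bp. TMEM258/FEN1, whose CACGTG is printed above between its genes, had a MYC summit in 0 libraries, and CCND3/TAF8 had 0 too.

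Other motifs were set beside the same 500-bp stretch, centred on the pair or on the equivalent point of one-direction windows. CCGGAAG was in 31.6% of pairs and 12.7% of one-direction windows, and in 39.4% of pairs with POL2 in all 6 libraries against 22.2% of those with POL2 in none. One-direction promoters with POL2 in all 6 libraries held it in 27.4%. GGGCGG was in 81.5% and 58.7%, CCAAT in 50.4% and 46.2%, CGCATGCG in 7.64% and 2.42%, and CTCGCGAG in 3.15% and 1.36%. Over all windows TATAAA was the motif less frequent in pairs, at 8.00% against 16.4%. CACGTG was in 13.8% and 11.0%. It was in 27.9% of the 122 pairs with a MYC summit in at least 1 library against 11.4% of the 703 without. Among promoters with POL2 in all 6 libraries, GGGCGG was in 79.2% of pairs and 82.8% of one-direction windows, so pairs were not higher there. In the same order CCAAT was in 47.3% and 48.7%, TATAAA in 8.85% and 11.5% and CACGTG in 14.2% and 12.3%. CGCATGCG was in 7.08% and 4.82%, and CTCGCGAG in 4.87% and 2.58%. A match is only a run of letters, and the classes also differed in CpG content, as given above, whose part in these shares was not tested.

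MYC summits were mostly at pairs with POL2. Of the 122 pairs with MYC in at least 1 library, 120 had POL2 in at least 1, and 65 (53.3%) had POL2 in all 6, against 161 (22.9%) of the 703 pairs without MYC. Within a library, 95.8%, 71.4% and 90.0% of MYC-occupied pairs in WT and 92.2%, 90.3% and 93.3% in SLK-KO held a POL2 summit of the same-numbered library. The same-numbered one-direction values averaged 83.3% ± 11.9 against 88.8% ± 8.80 at pairs (SD, n = 6). Pairs were higher by 5.52 points in 6 of 6 libraries (exact permutation p = 0.03125, adjusted 0.04375). It was 0.731 points with a separate window for every 5′ end (exact permutation p = 0.65625) and 1.38 points among pairs near the median span (p = 0.78125). With lists of equal length it was 17.2 points, 87.9% against 70.7% (exact permutation p = 0.03125). The MYC and POL2 summits of a pair lay a median of 160 to 204.5 bp apart, and they were on the same side in 40.0% to 68.2% of the pairs of a library.

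No difference in rank was detected for either antibody in the full lists. The median rank percentile of the best POL2 summit, where 0 is the top of a list, averaged 32.3 ± 7.45 at occupied pairs and 32.5 ± 4.75 at one-direction promoters, a difference of -0.182 ± 3.28 (SD, n = 6, exact permutation p = 0.9375). The difference was 6.35 in WT replicate 2, the shortest list, and -2.46 to -0.691 in the 5 others. Without that library it was -1.49 (exact permutation p = 0.0625, the smallest 5 libraries allow). With all 6 lists cut to 5047 summits it was 5.43, pairs being further from the top (exact permutation p = 0.03125). For MYC the values were 47.7 ± 7.19 and 50.7 ± 3.13, a difference of -2.99 ± 8.51 (SD, n = 6, exact permutation p = 0.4375). It was -7.46 with lists of equal length (exact permutation p = 0.21875), -6.41 with scores of at least 5 (p = 0.09375) and -0.324 without WT replicate 2 (p = 0.875). Repetition went with rank, as the median percentile was 15.9 for the 226 pairs with POL2 in all 6 libraries and 32.7 for the 654 with POL2 in any.

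Between the genotypes, POL2 occupied 52.1% ± 20.4 of the WT pairs and 70.7% ± 2.39 of those in SLK-KO (SD over 3 libraries each), which is 18.6 points more, with overlapping ranges (exact permutation p = 0.2, adjusted 0.467 over 7 genotype comparisons). It was 7.74 points without WT replicate 2, 27.9 points without WT replicate 1, and 1.86 points with lists of equal length. MYC occupied 2.34% ± 0.610 of the WT pairs and 8.44% ± 1.06 of those in SLK-KO (SD over 3 libraries each), which is 6.10 points more, without overlap (exact permutation p = 0.1, the smallest that 3 against 3 libraries allow, adjusted 0.467). With lists of 201 summits it turned to -0.162 points (exact permutation p = 0.5). Relative to the one-direction promoters of the same library, the log2 ratio changed by -0.06 for POL2 (exact permutation p = 0.4) and -0.25 for MYC (p = 0.2), both with overlapping genotypes. The MYC value depended on the setting. It was -0.54 with scores of at least 5, -0.33 with windows reaching 1000 bp into each gene, -0.26 with canonical 5′ ends and -0.06 with windows of 250 bp, without overlap in these 4 (exact permutation p = 0.1 for each). It was -0.11 with lists of equal length (exact permutation p = 0.4) and 0.01 with overlapping pairs added (p = 0.8).

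The pairs that only SLK-KO libraries listed were few. A POL2 summit in 3 SLK-KO and 0 WT libraries was found at 21 pairs (2.55%), against 1.25% of all windows, and the opposite pattern at 0 pairs, against 0.0293%. Without WT replicate 1 the count was 95, and with lists of equal length 10 pairs were SLK-KO only and 7 were WT only. The share of all windows was not counted under either setting, so these counts have nothing to be set beside. The best ranked were NAP1L3/FAM133A, TK2/CKLF, TRAPPC6A/BLOC1S3, STMN3/RTEL1 and MEX3A/LMNA. TK2 encodes the mitochondrial thymidine kinase, CKLF a chemokine-like factor, RTEL1 a telomere helicase and LMNA the nuclear lamins A and C. At TK2/CKLF the summit ranked 6436, 4818 and 5202 in the 3 SLK-KO lists, and at MEX3A/LMNA 11911, 7218 and 7593, with the latter on the MEX3A side. The 21 pairs had a median rank percentile of 59.0, so they were mostly in the lower part of the SLK-KO lists.

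For MYC, 11 pairs (1.33%) had a summit in 3 SLK-KO and 0 WT libraries, against 0.463% of all windows, and 0 had the opposite, against 0%. With lists of equal length 1 pair remained in the SLK-KO-only pattern, and without SLK-KO replicate 3, when 2 libraries were enough, 25 pairs had it. Here too the share of all windows was not counted. NCBP2/NCBP2AS2, whose NCBP2 is a subunit of the nuclear cap-binding complex, ranked best, at 70, 58 and 159 in SLK-KO, with the MYC summit 104, 108 and 144 bp to the left on the NCBP2 side. Its POL2 summit was present in all 6 libraries, within 77 bp of the midpoint. LONP1/CATSPERD, with the mitochondrial protease LONP1, ranked 77, 510 and 155, and TEX46/KDM1A, with a histone demethylase, 234, 266 and 345. RPL18/SPHK2, with a ribosomal protein, and NUDCD2/HMMR, with a hyaluronan receptor that acts in mitosis, ranked 472 to 956 and 228 to 926. PPAT/PAICS was in this list too, at 996, 1064 and 300. POL2 was present at these 5 best-ranked pairs in 2 or 3 WT libraries.

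No difference in POL2 placement between the genotypes was detected. The share of occupied pairs with both sides was 3.60% ± 1.34 in WT and 3.67% ± 0.588 in SLK-KO, a difference of 0.0672 points (n = 3 each, exact permutation p = 0.8). Summits per occupied pair differed by 0.00123 (exact permutation p = 0.8). The median rank percentile was 36.5 ± 9.08 and 28.0 ± 1.31, SLK-KO minus WT being -8.54 with overlapping ranges (n = 3 each, exact permutation p = 0.3), and 1.14 with lists of equal length.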

How the data were processed

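Per the labels, MYC and POL2 ChIP-seq libraries were sequenced as 50 bp paired-end reads and processed with nf-core/chipseq 2.1.0 against GRCh38.p14. The submitters' processing notes name MACS3 3.0.1 and BWA 0.7.18-r1243 among other tools. Each deposited list holds the 1-bp summits of 1 library with a score, read here as −log10 of the authors' q-value because every list begins just above 1.30103, which is −log10 of 0.05. The score is the authors' own and served here for ordering and thresholding inside each list alone. Caller options and the control are not given in the sources used here, and depth is unknown, so no depth interval could be set.

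Pairs came from GENCODE 44 gene records. Of pairs that shared a gene, 62 were dropped in favour of the shorter span. A window ran 500 bp into each gene. Percentiles of rank are counted from the best score. The library was the unit: promoter classes were compared by exact sign flips over 6 libraries (64 flips), genotypes by exact permutation (20 relabellings), with Benjamini-Hochberg adjustment over 7 comparisons in each family. The motifs CGCATGCG and CTCGCGAG, the E-box reach of 150 bp and the span limit values were added after seeing the data.

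Members, gene lists and tests were chosen with earlier results of these data known. Named pairs were the 5 best by median rank among those in all 6 libraries, those in 3 libraries of 1 genotype only, those with the most POL2 summits, those on 1 side or both sides throughout, textbook pairs, and up to 3 per gene group with the most occupied libraries. The counting by side was checked with summits seeded on known sides: of 200 windows of each kind among the 825, 100% were recovered. That checks the counting code alone and not how reliable a side is in the real lists. The alternatives covered window, span, annotation, base composition, score, list length, pairing by replicate number and omission of single libraries. A check of pairing by replicate number gave correlations of -0.0936 to 0.0829 between same-numbered libraries. These values do not measure shared occupancy. For POL2, WT replicate 1 and SLK-KO replicate 1 both had a single-sided summit at 509 pairs. Whether libraries of the same number shared a batch is not visible in such lists. Computation used scipy 1.17.1 and pandas 2.3.3 with numpy 2.4.6 under Python 3.11.15, and plots matplotlib 3.10.9. Some marker genes, 1 textbook pair and 1 sequence are not reported here.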

Additional observations from a re-analysis of the deposited data

Results flagged for a closer look

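The difference in MYC rank percentile between pairs and one-direction promoters went in opposite directions in the genotypes. It was -2.81, -16.3 and -8.90 in WT replicates 1 to 3, mean -9.33, where a negative value places pairs nearer the top of the list, and 0.842, 7.75 and 1.49 in SLK-KO, mean 3.36. SLK-KO minus WT was 12.7 percentile points, with no overlap (exact two-sided permutation p = 0.1, the smallest that 3 against 3 libraries allow). The result was picked out because it differed between the genotypes. The lack of overlap and the p therefore follow from that choice and are no separate evidence of a difference. The difference rests on 14 to 24 occupied pairs per WT library and 60 to 77 per SLK-KO library. The lists differed in length, and the part of list length in the difference was not tested.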

How the results depend on the processing

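Of 203 values of the tested comparisons under other settings, 180 kept direction and side of the threshold, as did 66 of 84 counts in size. The higher POL2 and MYC shares of pairs kept both under every setting that used 6 libraries, and with 5 libraries no p can fall below 0.0625. For each value below that changed, the cause was not tested. The counts below are of pairs alone, as the share of all windows was not counted under these settings.

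With a window reaching 250 bp into each gene, the POL2 rank difference was 0.275, that in MYC windows with POL2 3.26 points, POL2 WT-only pairs 3 and MYC pairs in all libraries 3. With a separate window for every 5′ end these MYC windows differed by 0.731 points, the genotype differences were -0.133 points for both sides and -0.00203 summits, and, over genes, SLK-KO-only counts were 39 (POL2) and 21 (MYC) and all-library counts 415 and 11. At spans of at most 300 bp, summits per window differed by 0.00413 and both sides by 0.443 points. With canonical 5′ ends the POL2 rank difference was 0.0882, SLK-KO-only counts 13 and 20, and MYC pairs in all libraries 10. With overlapping pairs added, the MYC log2 ratio differed by 0.0121 and 22 pairs were MYC SLK-KO only. In CpG-rich windows the genotype difference for both sides was -0.0552. With a score of at least 5, the POL2 rank difference was 1.06, MYC windows with POL2 differed by 6.58 points (exact permutation p = 0.125), and 4 pairs were MYC SLK-KO only.

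With lists of equal length, the POL2 rank difference was 5.43, and the genotype differences were -0.162 points (MYC share), -0.926 points (both sides), -0.00926 summits and 1.14 (POL2 rank). SLK-KO-only counts were then 10 (POL2) and 1 (MYC), and WT-only POL2 pairs 7. Among pairs within 30 bp of the median span, a setting chosen after seeing the data, class differences were -0.000216 summits, 0.0114 points (both sides), 0.202 (POL2 rank) and 1.38 points (MYC with POL2), and genotype differences -0.398 points (both sides) and -0.00398 summits. Fewer pairs entered: SLK-KO-only counts were 7 and 4, all-library counts 47 and 0. The other setting chosen after seeing the data, a POL2 summit within 100 kb, changed no call, though it could leave out only windows without POL2.

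Leaving out 1 library, class differences ranged over 32.6 to 36.9 points (POL2 share), 2.96 to 3.98 points (MYC share), 0.0230 to 0.0283 summits, 2.31 to 2.83 points (both sides), -1.49 to 0.273 (POL2 rank), -5.13 to -0.324 (MYC rank) and 4.34 to 6.33 points (MYC with POL2). Genotype differences ranged over 7.74 to 27.9 points (POL2 share), 5.66 to 6.69 points (MYC share), -0.10 to -0.03 and -0.33 to -0.16 (log2 ratios, POL2 and MYC), -0.332 to 0.841 points (both sides), -0.00277 to 0.00896 summits and -13.0 to -3.95 (POL2 rank). Counts ranged over 21 to 95 (POL2 SLK-KO only), 0 to 3 (POL2 WT only), 227 to 408 (POL2 all libraries), 11 to 25 (MYC SLK-KO only), 0 to 0 (MYC WT only) and 6 to 11 (MYC all libraries).

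With same-numbered libraries paired as a replicate block, the genotype differences kept their values, 18.6 points for POL2 and 6.10 points for MYC, with an exact p of 0.25 each, the smallest that 8 sign flips allow. In the check of pairing, 3 of the 6 pairs of same-numbered libraries correlated best with their own number.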
